A study of Mus musculus with 18 samples.

Results

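The brush border is the apical membrane of the proximal tubule, and 10 genes of its surface proteins were followed across 5 mouse strains challenged with anti-GBM antibodies. The genes were the peptidases Mep1a, Mep1b, Anpep, Dpp4, Ggt1, and Dpep1, the disaccharidase Treh, and the endocytic receptor genes Lrp2, Cubn, and Amn. They were chosen by name, and every probe that carries one of these symbols was read. All 10 genes had a probe. In the table of B6 and NZW 15 of 46643 rows belonged to them, and in the table of BALB/C, DBA1, and 129/svj 8 of 46147 rows. The second table names its rows only by a key, and 7 of its 8 rows paired one to one with a probe of the first table. The eighth row carried a key that 3 Mep1b probes share and was read within its own table. The probes of Amn, Anpep, Dpep1, and Mep1a, and the probe ILMN_2615096 of Dpp4, had no counterpart, so these transcripts were read in B6 and NZW only.

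RNA of the kidney cortex had been measured on 18 Illumina mouse WG-6 v1 BeadChips from 15 mice, 3 of each strain. The mice were 2 months old and all were challenged with anti-GBM antibodies, which bind the glomerular basement membrane and start a nephritis. B6 and BALB/C are labelled resistant to this nephritis, and DBA1, 129/svj, and NZW sensitive. No unchallenged mice were among the arrays, so a strain's level before the challenge and its response to the antibodies cannot be told apart, and the time after challenge and the sex of the mice are not given in the sources used here. Mouse 1 of BALB/C, DBA1, and 129/svj had a second array, which was averaged with its first. Because each deposited table was normalized on its own, strains were compared within a table.

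In the proximal tubule, peptides that pass the glomerular filter are cut at the microvillus surface by membrane peptidases, and the resulting amino acids are taken up by transporters beside them. Filtered proteins are bound by 2 giant receptors, megalin (Lrp2) and cubilin (Cubn), and are carried into the cell for breakdown in lysosomes. Cubilin has no membrane-spanning part of its own and reaches the surface together with amnionless (Amn). Trehalase (Treh), which splits the sugar trehalose, is a classic enzyme of this membrane.

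The sequences just upstream of Treh and Anpep are shown because, among the 10 genes, Treh was called in both tables and Anpep had the largest difference of the peptidases. Each sequence is the 250 bases before the annotated start in the strain of the reference genome, taken from RefSeq (GRCm38.p6) and written 5′ to 3′ along the gene. The Treh sequence lies on the plus strand at chr9:44672983-44673232, and its capitals mark matches to CAAAGT or its reverse complement ACTTTG, a core of HNF4 binding sites. The Anpep sequence lies on the minus strand at chr7:79848211-79848460, and its capitals mark matches to GGGCGG, the GC box, which was searched together with its reverse complement CCGCCC.
Treh: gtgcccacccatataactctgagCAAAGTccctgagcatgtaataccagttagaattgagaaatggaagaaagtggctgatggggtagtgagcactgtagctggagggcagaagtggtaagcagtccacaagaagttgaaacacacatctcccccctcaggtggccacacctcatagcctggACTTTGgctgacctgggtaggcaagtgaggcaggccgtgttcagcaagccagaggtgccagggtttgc
Anpep: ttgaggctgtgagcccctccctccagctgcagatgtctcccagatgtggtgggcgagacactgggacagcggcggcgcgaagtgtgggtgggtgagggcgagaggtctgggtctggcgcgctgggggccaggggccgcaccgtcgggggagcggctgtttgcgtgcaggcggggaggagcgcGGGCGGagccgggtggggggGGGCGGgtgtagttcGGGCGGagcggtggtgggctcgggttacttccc
The Treh window held 2 matches to CAAAGT and none to GGGCGG, and the Anpep window held 3 matches to GGGCGG and none to CAAAGT. Of all 32851 mouse promoters in the table, 12.6% held CAAAGT and 32.7% held GGGCGG in a window of the same length. Promoter sequences of 9 of the 10 genes were read, with 4 starts for Ggt1 and none for Mep1b. CAAAGT was found for 5 genes and GGGCGG for 4 genes. Of their 12 promoters, 5 held CAAAGT and 5 held GGGCGG. These matches describe the letters of 1 reference strain and do not show how the other strains differ.

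Signals of an array had a median of 81.1 to 152, and 30.5% to 36.4% of its rows were counted as detected, at a detection p no higher than 0.05. Each probe was read on 22 to 64 beads per mouse, with a median of 40. Over the tested probes, arrays of different mice of a strain correlated at 0.957 to 0.993. The 3 pairs of repeat arrays correlated at 0.987 to 0.989, and the detected brush border probes differed between repeat arrays by a median of 0.10 on the log2 scale. One comparison stood far outside that spread, the probe ILMN_2708043 of Lrp2 in mouse 1 of 129/svj. The deposited signals were 253 and 139 on the repeat arrays. After background correction and normalization they differed by 1.38 on the log2 scale. The proximal tubule marker Slc34a1, the phosphate transporter, was bright in all 15 mice, with strain means of 13.54 to 14.63 on the log2 scale. In a bulk sample, fewer proximal tubule cells and less transcript per cell cannot be told apart.

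In the first table B6, which is resistant, was compared with NZW, which is sensitive. Anpep, Treh, Cubn, and 1 of the Lrp2 probes were lower in B6 than in NZW, and the other brush border probes were not called. The normalized log2 signal was tested with limma, with Benjamini-Hochberg adjustment over all 16756 probes detected in at least 3 mice. Of the 13 tested brush border probes, 4 were lower in B6 at an adjusted p below 0.05 and 0 were higher, whereas 9.61% of all tested probes were lower and 9.23% were higher. At an unadjusted p below 0.05 the methods' t-test called 8 of the 13, Mep1a among them as higher, and 4769 of all 16756 probes. The difference was below 0 for 12 of the 13 probes, with a median of -0.32, against a median of -0.04 over all tested probes, of which 56.2% were below 0. Every B6 mouse lay below every NZW mouse for 8 of the 13 probes, which held for 21.1% of all tested probes. The other 2 of the 15 probes, ILMN_1233247 of Lrp2 and ILMN_2444175 of Mep1b, were detected in none of the 6 mice and were not tested. With the arrays scaled to their 75th percentile, the median over all probes moved to -0.13 and lower probes rose from 51.0% to 62.7% of those called, so that 7 brush border probes passed, and the differences are best read against that shift.

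**Figure D1:**
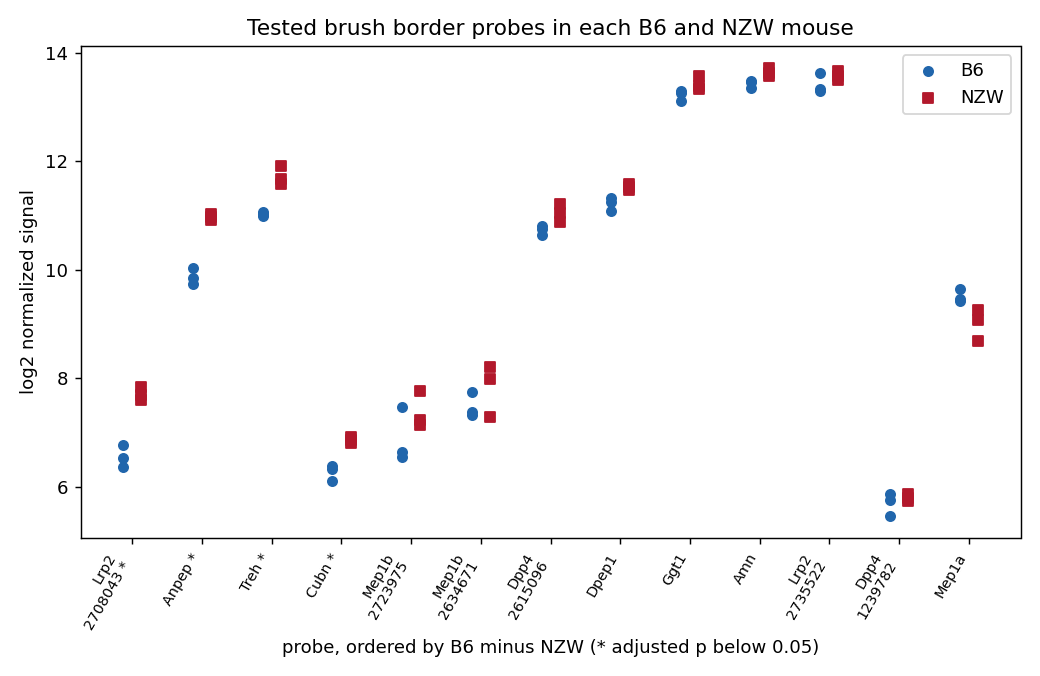
Log2 normalized signal of the 13 tested brush border probes in each of the 3 B6 mice (blue circles) and the 3 NZW mice (red squares), ordered along the horizontal axis by the difference of B6 minus NZW. Asterisks mark the 4 probes with an adjusted p below 0.05, all lower in B6, and Mep1a at the right end is the one probe whose difference was above 0.

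Among the peptidases, Anpep showed the largest difference. Anpep encodes aminopeptidase N, which removes single amino acids from the amino end of peptides. Its deposited signal was 929, 1006, and 991 in the B6 mice and 2387, 2253, and 1843 in the NZW mice. The highest B6 mouse lay far below the lowest NZW mouse. On the log2 scale B6 had 9.87 ± 0.15 and NZW 10.97 ± 0.06 (SD, n = 3 each), a difference of -1.10 (SE 0.11, adjusted p = 0.000251 in limma) or 2.15-fold lower in B6. It kept its direction and stayed below the threshold under all 9 alternative settings and with each of the 6 mice left out.

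The meprins are metalloproteases that cleave larger peptides and proteins, and none of their probes was called. Mep1a, the alpha subunit, gave a signal of 773, 789, and 763 in the B6 mice and 671, 732, and 418 in the NZW mice. Every B6 mouse was above every NZW mouse, opposite to the other separated probes, and NZW mouse 3 was clearly the lowest. The log2 difference of Mep1a was 0.50 (SE 0.16), with a 95% interval of 0.14 to 0.85, and it missed the threshold (adjusted p = 0.0575 in limma). Without NZW replicate 2 it passed (adjusted p = 0.0286 in limma), and under 9 alternative settings it passed in 4. The beta subunit Mep1b had 2 detected probes in this table. The probe ILMN_2634671 gave a signal of 232, 243, and 255 in B6 and 349, 224, and 317 in NZW. The probe ILMN_2723975 gave 171, 164, and 219 in B6 and 306, 218, and 182 in NZW. The strains overlapped for both Mep1b probes, whose log2 differences were -0.34 (adjusted p = 0.36 in limma) and -0.49 (adjusted p = 0.23 in limma). Each crossed the threshold without 1 mouse, the first without NZW replicate 2 (-0.61, adjusted p = 0.0386 in limma) and the second without B6 replicate 3 (-0.79, adjusted p = 0.0413 in limma). The Mep1b row of the other table was detected in none of its 9 mice.

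No probe of the remaining peptidases passed the threshold between B6 and NZW with the main settings. Dpp4 encodes dipeptidyl peptidase 4, which removes dipeptides, and its bright probe ILMN_2615096 ranged from 1584 to 1870 in B6 and from 2129 to 2408 in NZW. The log2 difference was -0.32, with a 95% interval of -0.59 to -0.04 (adjusted p = 0.109 in limma). The dim Dpp4 probe ILMN_1239782 overlapped between the strains, with a log2 difference of -0.10 (95% interval -0.39 to 0.19). Dpep1, the renal dipeptidase, ranged from 2221 to 2523 in B6 and from 2708 to 3381 in NZW, a log2 difference of -0.30 with a 95% interval of -0.56 to -0.05 (adjusted p = 0.0919 in limma). Ggt1, gamma-glutamyltransferase, which starts the breakdown of glutathione outside the cell, ranged from 8830 to 9840 in B6 and from 11003 to 12216 in NZW, a log2 difference of -0.21 with a 95% interval of -0.47 to 0.05 (adjusted p = 0.247 in limma). For Dpep1, Ggt1, and the bright Dpp4 probe the strains nevertheless did not overlap. Under 9 alternative settings Dpep1 passed in 4 and the bright Dpp4 probe in 3, whereas Ggt1 passed in 0 of 10. With 3 mice against 3, an exact two-sided permutation test of a single probe cannot give a p below 0.1, and the separated probes reached that value.

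Trehalase was lower in both resistant strains. In the table of B6 and NZW, Treh gave a signal of 2235, 2160, and 1849 in the B6 mice and 3468, 4426, and 2923 in the NZW mice. The lowest NZW mouse exceeded the highest B6 mouse. The log2 difference was -0.69 (SE 0.12, adjusted p = 0.00393 in limma), 1.61-fold lower in B6.

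In the other table Treh gave a signal of 1355, 1502, and 1575 in the BALB/C mice. It gave 2046, 2307, and 2165 in the DBA1 mice and 2452, 2460, and 3303 in the 129/svj mice. No BALB/C mouse reached a mouse of either sensitive strain, and all DBA1 mice were below all 129/svj mice. The order of the levels was therefore BALB/C, DBA1, and 129/svj, at 10.41 ± 0.14, 11.02 ± 0.14, and 11.33 ± 0.06 on the log2 scale (SD, n = 3 each). BALB/C against the mean of DBA1 and 129/svj gave -0.76 (SE 0.12, adjusted p = 0.00354 in limma), 1.70-fold lower in BALB/C. An exact two-sided permutation test of the 3 BALB/C against the 6 sensitive mice gave p = 0.0119, the smallest this design allows.

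Against the single strains, the log2 difference of Treh was -0.92 for BALB/C minus 129/svj (SE 0.14, adjusted p = 0.0028 in limma) and -0.61 for BALB/C minus DBA1 (SE 0.14, adjusted p = 0.0289 in limma). The difference from DBA1 was the less stable. It lost the threshold in 6 of 9 fits with 1 mouse left out, those without BALB/C replicates 1, 2, and 3, DBA1 replicates 2 and 3, and 129/svj replicate 1 (adjusted p of 0.0276 to 0.121 in limma over the 9). The neighbours DBA1 and 129/svj differed by -0.31, which did not pass (95% interval -0.61 to -0.00, adjusted p = 0.356 in limma).

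**Figure D2:**
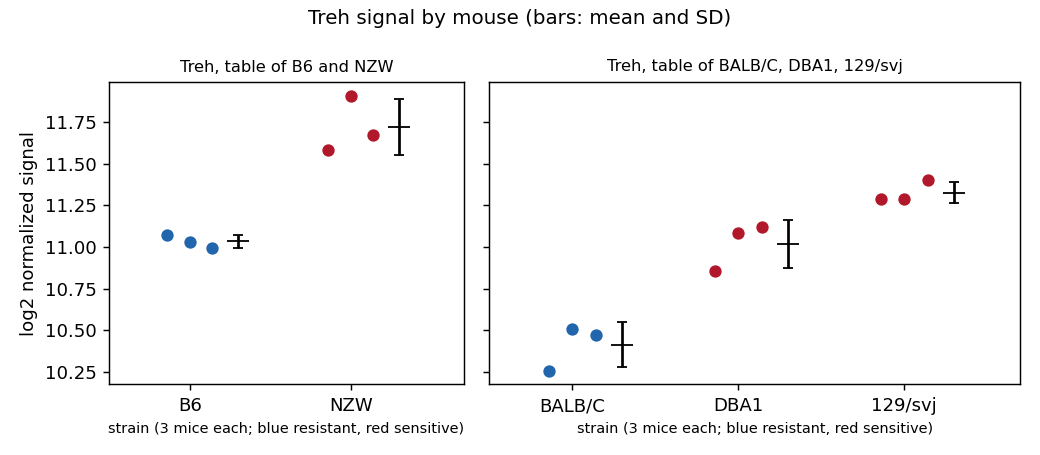
Log2 normalized signal of Treh (vertical axis) in each mouse of the 5 strains (horizontal axis), with the table of B6 and NZW on the left and the table of BALB/C, DBA1, and 129/svj on the right, resistant strains in blue and sensitive strains in red. Bars give the mean and SD of 3 mice, and within each table all mice of the resistant strain lie below all mice of the sensitive strains.

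Averaged over both tables in 1 fit of the paired probes, the resistant strains had 1.64-fold less Treh signal than the sensitive strains. The log2 difference was -0.72 (SE 0.08, 95% interval -0.89 to -0.54, adjusted p = 1.92e-05 in limma over 6896 probes). It passed under all 12 alternative settings, with values from -0.84 to -0.68, and with each of the 15 mice left out. These settings included the strain as a random block. Only the sensitive side of the second table held more than 1 strain, so the block cannot separate the label of resistance from strain. The p-values rest on the spread between mice. Whether the Treh difference would hold in further resistant and sensitive strains was not tested. The within-table differences of Treh did not differ detectably from each other (difference -0.18, 95% interval -0.52 to 0.17, adjusted p = 0.607 in limma). Treh was the only one of the 6 brush border probes in this fit that was called, where 5.45% of all probes were lower and 6.53% were higher in the resistant strains. Cubn (-0.28), the dim Dpp4 probe (-0.14), Ggt1 (-0.13), and the Lrp2 probes ILMN_2708043 (-0.25) and ILMN_2735522 (0.05) were not called.

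All 4 tested probes of the endocytic receptor genes had a difference below 0 in B6 minus NZW, and 2 of them were called. Lrp2 encodes megalin, and its bright probe ILMN_2735522 gave a signal of 10379, 9973, and 11188 in the B6 mice and 13462, 13180, and 11543 in the NZW mice. On the normalized scale the strains overlapped, with a log2 difference of -0.16 (95% interval -0.44 to 0.12, adjusted p = 0.428 in limma). Amn, the partner of cubilin, ranged from 10088 to 11205 in B6 and from 11800 to 14933 in NZW, a log2 difference of -0.20 (95% interval -0.44 to 0.03, adjusted p = 0.214 in limma), with every B6 mouse below every NZW mouse. Under 9 alternative settings Amn passed in 2.

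The probe ILMN_2708043, which the files assign to a predicted Lrp2 transcript variant, behaved unlike the bright probe. It gave a signal of 179, 153, and 145 in B6 and 295, 304, and 229 in NZW, so every NZW mouse was above every B6 mouse. After background correction the log2 difference was -1.16 (SE 0.13, adjusted p = 0.000436 in limma), 2.23-fold lower in B6. Over 10 alternative settings it ranged from -1.20 to -0.79 and stayed called. In the other table the order of resistant and sensitive strains was turned. The signal was 237, 225, and 210 in BALB/C, 193, 187, and 173 in DBA1, and 196, 171, and 177 in 129/svj. Every BALB/C mouse was above every mouse of both sensitive strains, and the log2 difference was 0.59 (SE 0.15, adjusted p = 0.0419 in limma, exact permutation p = 0.0119). This difference was smaller than the 1.38 between the repeat arrays of 129/svj mouse 1 and lost the threshold under 6 of 11 alternative settings. One of those arrays gave a signal above the averaged signal of every BALB/C mouse, so the separation rests on the mean of both arrays. Without background correction the difference was 0.26 and was not called. With the first array of each mouse only it was 0.47 (adjusted p = 0.362 in limma). It also lost the threshold in 7 of 9 fits with 1 mouse left out, those without any 1 of the BALB/C mice, without DBA1 replicate 1 or 2, or without 129/svj replicate 2 or 3, with adjusted p of 0.027 to 0.194 in limma over the 9.

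Tested in 1 fit, the within-table differences of this Lrp2 probe were unlike by a log2 value of 1.77 (SE 0.21, adjusted p = 4.79e-05 in limma). It was the only one of 6 brush border probes called for such a difference, against 10.3% of all paired probes. The bright Lrp2 probe gave 0.29 in the same test (95% interval -0.29 to 0.86, adjusted p = 0.619 in limma).

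Cubn encodes cubilin. Its signal was 137, 150, and 137 in the B6 mice and 196, 178, and 166 in the NZW mice, and the strains did not overlap. The log2 difference was -0.60 (SE 0.11, adjusted p = 0.00701 in limma), 1.52-fold lower in B6. The probe was dim, and without background correction the difference was -0.36 (adjusted p = 0.0106 in limma). In the other table the row paired with it by its key gave a signal of 827, 749, and 586 in BALB/C, 935, 1070, and 520 in DBA1, and 762, 587, and 510 in 129/svj. These strains overlapped, and BALB/C differed from the mean of DBA1 and 129/svj by 0.02 on the log2 scale (95% interval -0.62 to 0.65, adjusted p = 0.987 in limma). The strains of the second table were all several times brighter than B6 and NZW for Cubn, a step at which table, strain, and a possible other oligo behind the key cannot be told apart.

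**Figure D3:**
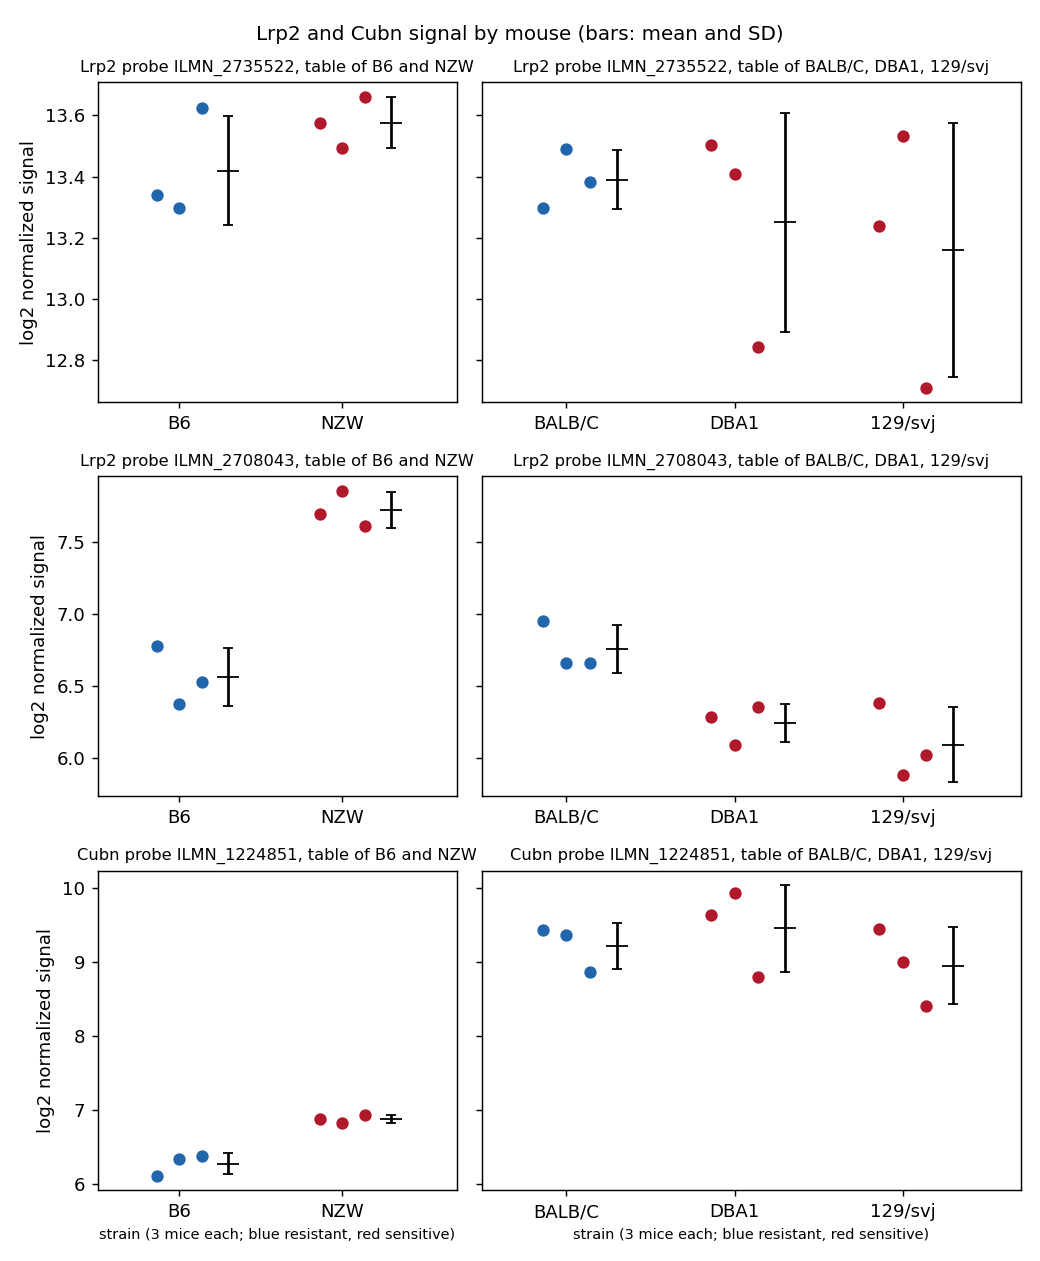
Log2 normalized signal (vertical axes) of the bright Lrp2 probe, the dim Lrp2 probe, and the Cubn probe in each mouse of the 5 strains (horizontal axes), with 1 panel per table, resistant strains in blue and sensitive strains in red, and bars for the mean and SD of 3 mice. The dim Lrp2 probe is lower in B6 than in NZW and higher in BALB/C than in the sensitive strains beside it, and mouse 3 of DBA1 and of 129/svj is the lowest of its strain for the bright Lrp2 probe and for Cubn.

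On the normalized scale, within DBA1 and within 129/svj, the bright Lrp2 probe and Cubn were both lowest in mouse 3, whereas the dim Lrp2 probe was not. The deposited signal of the dim probe was lowest in mouse 3 of DBA1. Cubn was lowest in mouse 3 of BALB/C as well. The bright Lrp2 probe gave a signal of 11720, 10721, and 6949 in the DBA1 mice and 9377, 11111, and 7640 in the 129/svj mice. After normalization Ggt1 was also lowest in mouse 3 of these strains, at 12.60 in DBA1 and 12.45 in 129/svj on the log2 scale, although its deposited signal in 129/svj was highest there. Normalized Treh was highest in these same mice, at 11.12 and 11.40 on the log2 scale. The summed level of the 4 measured injury markers was 277, 465, and 388 in DBA1 and 240, 253, and 407 in 129/svj, with all 4 detected in at least 1 mouse of each strain. Their part in the receptor levels was not tested.

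BALB/C against the averaged sensitive strains DBA1 and 129/svj covered 6 tested brush border probes, of which Treh was called lower and the dim Lrp2 probe higher. Over all 15818 tested probes, 3.01% were lower and 2.98% were higher. The median difference of the 6 probes was -0.05, against 0.01 over all probes. Ggt1 ranged from 6147 to 6830 in BALB/C, from 6065 to 8211 in DBA1, and from 6457 to 6621 in 129/svj, and BALB/C differed by -0.14 on the log2 scale (95% interval -0.45 to 0.17). The dim Dpp4 probe was detected in 3 of the 9 mice and gave -0.11 (95% interval -0.53 to 0.30).

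Against DBA1 alone, 1 of the 6 probes (Treh) was lower and 0 were higher in BALB/C, where 2.89% of all probes were lower and 2.86% higher. Against 129/svj alone, again 1 of 6 (Treh) was lower and 0 were higher, where 2.36% of all probes were lower and 2.47% higher. Between the sensitive strains DBA1 and 129/svj, 0 of 6 were called with limma, where 2.31% of all probes were lower and 2.17% higher in DBA1. At an unadjusted p below 0.05 the methods' t-test called 1 of the 6, Treh, and 1785 of all 15818 probes. The widest interval in this comparison was that of Cubn, at 0.50 with a 95% interval of -0.23 to 1.24.

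**Figure D4:**
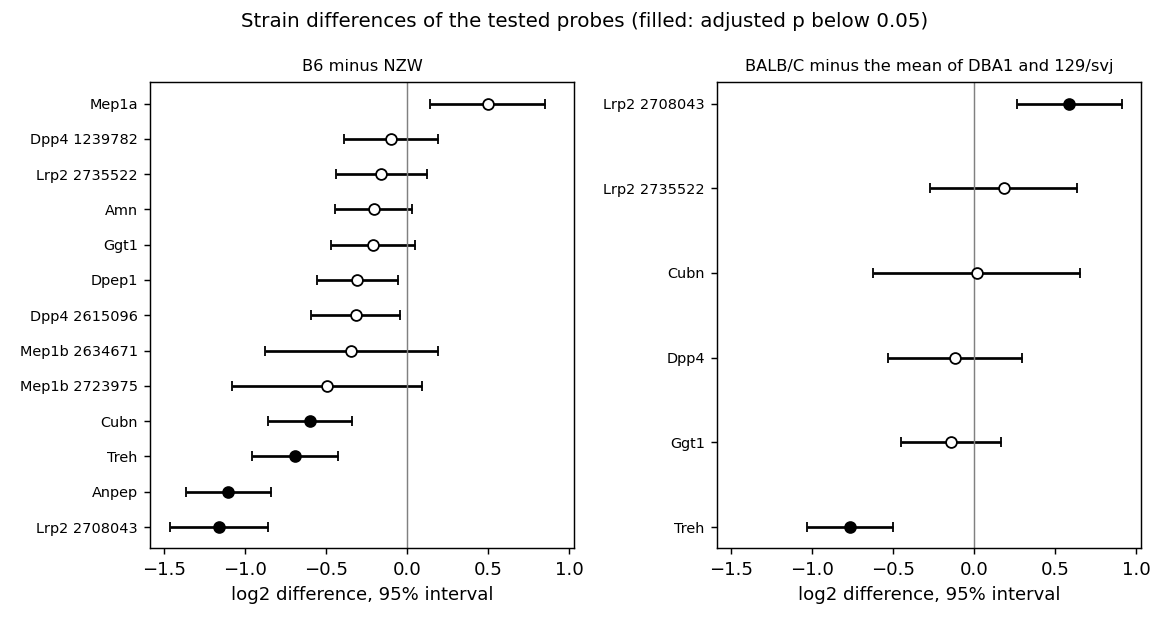
Log2 differences (horizontal axes) with 95% intervals for the 13 brush border probes tested in B6 minus NZW (left) and the 6 tested in BALB/C minus the mean of DBA1 and 129/svj (right), with filled symbols for an adjusted p below 0.05. Treh is lower in the resistant strain in both panels, at -0.69 and -0.76, and the dim Lrp2 probe ILMN_2708043 changes side, from -1.16 to 0.59.

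Further genes were read from lists of hydrolases, endocytic adaptors, and microvillus proteins, with the brightest probe for each gene. A place on the list of hydrolases does not mean that the enzyme lies in the brush border membrane. Of 12 further hydrolases tested in B6 and NZW, 1 was higher and 2 were lower in B6, beside 9.23% and 9.61% of all tested probes. The higher one was Folh1, glutamate carboxypeptidase II, which was detected in all B6 mice and in none of the NZW mice. Its log2 level was 8.91, 8.72, and 9.05 in B6, at least 11.9-fold above NZW (adjusted p = 1.12e-07 in limma), a bound taken from the dimmest detected signal of each NZW array. Acy1 and Acy3, aminoacylases that release amino acids from acylated forms, were lower in B6 by log2 differences of -1.42 (adjusted p = 0.000134 in limma) and -0.81 (adjusted p = 0.00142 in limma).

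In the second table Folh1 was below detection in all 3 DBA1 mice and detected in all BALB/C and 129/svj mice. It was at least 9.81-fold higher in BALB/C than in DBA1 (adjusted p = 4.51e-06 in limma) and at least 11.4-fold higher in 129/svj than in DBA1 (adjusted p = 2.85e-06 in limma). Its log2 level was 9.19 ± 0.31 in the sensitive strain 129/svj and 8.97 ± 0.47 in the resistant strain BALB/C (SD, n = 3 each), so detection of Folh1 did not split along the labels of resistance. Of the 6 further hydrolases tested there, 1 was lower and 1 was higher in BALB/C than the mean of the sensitive strains. Over all tested probes 3.01% were lower and 2.98% were higher. The higher one was Folh1 (1.91, adjusted p = 0.000311 in limma), which was below detection in DBA1 only. The lower one was Enpp3, an ectonucleotide pyrophosphatase (-0.68, adjusted p = 0.0155 in limma). Enpp3 gave -0.95 against DBA1 (adjusted p = 0.00531 in limma) and -0.40 against 129/svj, which was not called (adjusted p = 0.245 in limma).

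Of 21 tested genes of the endocytic machinery, 1 was lower and 0 were higher in B6 than in NZW with limma, beside 9.61% and 9.23% of all tested probes. The lower one was Lrpap1, the chaperone that keeps megalin free of ligands on its way to the surface (-0.45, adjusted p = 0.0174 in limma). The median of the 21 was -0.09. Of the 4 endocytic genes tested in the other table, Fcgrt, the neonatal Fc receptor, was the 1 called in either comparison with 129/svj. It was higher in 129/svj than in BALB/C (-0.79 for BALB/C minus 129/svj, adjusted p = 0.0037 in limma) and than in DBA1 (-0.79, adjusted p = 0.00415 in limma). Of all tested probes, 2.36% were lower in BALB/C than in 129/svj and 2.31% were lower in DBA1 than in 129/svj.

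Of 15 microvillus genes, 3 were lower and 1 was higher in B6 than in NZW, where 9.61% and 9.23% of all tested probes were. Eps8 (-0.69) and Espn (-0.62), which cap and bundle actin, and the scaffold Pdzk1 (-0.44) were lower, and Ush1c (0.72), which links the tips of microvilli, was higher. None of the 5 microvillus genes tested in the second table was called in BALB/C against DBA1 and 129/svj. Of all probes tested there, 3.01% were lower and 2.98% were higher. Of 7 regulators of proximal tubule genes tested in the first table, Ppara, a regulator of fatty acid oxidation, was lower in B6 (-1.23, adjusted p = 0.00426 in limma). The other regulators were not called, beside 9.61% lower and 9.23% higher of all tested probes.

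Marker levels of the tubule and of other cells differed in some of these comparisons. The 12 measured proximal tubule markers summed to 94710 to 106900 in the B6 mice and 113800 to 122100 in the NZW mice. Of the 10 tested, 2 were lower in B6, Slc5a12 (-1.35) and Miox (-0.40), and 0 were higher. Over all tested probes 9.61% were lower and 9.23% were higher. The median of the 10 was -0.25, against -0.04 over all tested probes. Among genes of other nephron segments, Slc12a3 of the distal tubule was higher in B6 (1.46). In the second table the 4 measured proximal tubule markers summed to 25960 to 30810 in BALB/C, 23550 to 27210 in DBA1, and 17200 to 21950 in 129/svj, none of the 4 called in BALB/C against both. Neither those 4 nor the 5 tested genes of other nephron segments were called in any of the 4 comparisons of that table. In those comparisons 2.17% to 3.01% of all tested probes were called in each direction. The part of these markers in the brush border differences was not tested.

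Tubule injury markers differed in both directions between B6 and NZW. Of 10 tested, 3 were higher in B6, Timp1 (1.86) and Lcn2 (1.80) among them, and 3 were lower, Havcr1 (-2.77) and Krt18 (-0.71) among them. Over all tested probes 9.23% were higher and 9.61% were lower. Havcr1, which encodes kidney injury molecule 1, was 7.92, 7.54, and 5.40 on the log2 scale in the B6 mice and 10.27, 9.05, and 9.85 in the NZW mice. The summed level of the list was 21980, 22390, and 12400 in B6 and 12770 to 14560 in NZW, so B6 mouse 3 stood apart from the other B6 mice. Without B6 replicate 3, Treh, Anpep, Cubn, and the dim Lrp2 probe all remained lower in B6 at the threshold. Of 6 leukocyte genes tested 0 were called with limma, with sums of 1566 to 5185 in B6 and 2084 to 2494 in NZW, and Ptprc was detected in none of the 6 mice. In the second table the leukocyte sums were 304 to 500 in BALB/C, 314 to 427 in DBA1, and 187 to 1174 in 129/svj. In each of these strains 5 of the 6 measured leukocyte genes were detected in no mouse, so these sums are mostly background apart from 1 gene. The part of the injury and leukocyte genes in the differences was not tested.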

How the data were processed

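The authors deposited signal intensity values from BeadStudio without normalization, with a detection p-value against negative controls, a bead count, and a standard error over beads. Background was removed by normexp using the detection p-values (limma, offset 16), followed by quantile normalization within each table, log2, and a mean per mouse. In the table of B6 and NZW, 11 control probes with 2 rows each were averaged. Rows were paired by keys unique in both tables (19886 pairs), and the sources used here do not say that the oligo behind a key is the same. Probes detected (p no higher than 0.05) in 3 or more mice were tested with lmFit and eBayes (limma 3.58.1, R 4.3.3), with 1 coefficient per strain and Benjamini-Hochberg adjustment. For the comparison over both tables, paired probes of all arrays were normalized together. Single values had exact permutation tests over mice. Promoters were read and figures drawn with Python 3.11.15, pandas 2.3.3, and matplotlib 3.10.9. All member probes were described, and up to 4 called genes of each further list by size of difference. Some results of the further lists are not reported here. The members, lists, and tests were chosen with earlier results of these data known. In a simulation for B6 minus NZW (18955 tested probes), 35.5% of 200 probes shifted by 1 on the log2 scale were called, and 5.33% of the calls were unshifted probes. Only those 200 were shifted, whereas 3157 of 16756 probes were called in the data. The adjustment depends on how many probes differ, so 35.5% does not describe the share found in the data. The number of mice limits the precision, and p-values measure the spread between mice of a strain. Alternatives covered background, scaling, filter, variance model, replicate number, repeat arrays, strain block, the t-test of the methods, and each mouse left out.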

Additional observations from a re-analysis of the deposited data

Results flagged for a closer look

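The Lrp2 probe ILMN_2708043 was the one result that stood out, because its strain difference was not alike in the 2 tables. BALB/C minus the mean of DBA1 and 129/svj exceeded B6 minus NZW by a log2 value of 1.77 (SE 0.21, adjusted p = 4.79e-05 in limma), lower in 3 of 3 B6 mice than in every NZW mouse and higher in 3 of 3 BALB/C mice than in every sensitive mouse. The value ranged from 0.95 to 1.83 over 11 alternative settings and from 1.67 to 1.87 with 1 of the 15 mice left out, and it passed the threshold in each. In 129/svj mouse 1 the repeat arrays gave 253 and 139, the higher above the averaged signal of every BALB/C mouse, and the BALB/C difference alone lost the threshold under 6 of 11 alternatives. Whether the oligo is the same in both tables is not given in the sources used here. The probe was dim, with signals of 145 to 304 in B6 and NZW and 171 to 237 in the other strains.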

How the results depend on the processing

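No brush border difference that was called turned its sign under the alternatives run. The number of brush border probes called in B6 minus NZW was 4 as reported, 7 with 75th percentile scaling, 7 with the trended robust variance, 8 with the methods' t-test unadjusted, and 4 to 6 with 1 mouse left out. In BALB/C minus the mean of DBA1 and 129/svj it was 2, and 1 with an offset of 50, without background correction, without a filter, with the trended robust variance, with the first arrays only, or with Benjamini-Hochberg adjustment of the methods' t-test, and 1 to 2 with 1 mouse left out. In BALB/C minus DBA1 it was 1, then 2 with the unadjusted t-test, 0 after Benjamini-Hochberg (2 unadjusted), and 0 to 1 with 1 mouse left out. In BALB/C minus 129/svj it was 1, then 2 with the unadjusted t-test and 1 to 2 with 1 mouse left out, where the dim Lrp2 probe joined without 129/svj replicate 1 or DBA1 replicate 3. In DBA1 minus 129/svj the unadjusted t-test called 1, and over both tables it called 2. For BALB/C against both, limma's unadjusted test and the exact test each gave 2 single probes a p below 0.05. The corresponding exact test of B6 against NZW cannot reach that.

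Over all probes, those detected in every mouse gave 576, 587, 466, 368, 413, and 381 calls in BALB/C against both, DBA1, and 129/svj, in DBA1 minus 129/svj, over both tables, and for the difference of the tables, against 948, 909, 763, 709, 826, and 712 as reported, with fewer probes tested. The unadjusted t-test gave 4769 calls in B6 minus NZW and 2777, 2728, 2235, 1785, 1600, and 1476 in that same order. After Benjamini-Hochberg it gave 1851 in B6 minus NZW (3157 in limma), 399 in BALB/C minus DBA1, 318 in BALB/C minus 129/svj, and 218 in DBA1 minus 129/svj. Normalizing the tables together on the paired probes only gave 1346 in B6 minus NZW and 370, 333, 308, and 317 in the comparisons of the second table. With 1 mouse left out, calls ranged from 1737 to 2632 in B6 minus NZW, from 452 to 1068 in BALB/C against both, from 450 to 1167 against DBA1, from 442 to 951 against 129/svj, from 426 to 736 in DBA1 minus 129/svj, and from 465 to 835 for the difference of the tables. The causes were not tested.

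Mice of different strains share replicate numbers, but residuals of same-numbered mice correlated at -0.07 to 0.01 in the first table and at -0.26 to 0.39 in the second, so the numbers were not taken as pairs over all strains. All 3 same-numbered pairs of DBA1 and 129/svj correlated above 0.1 (0.192, 0.105, and 0.387). With the block, that comparison called 678 probes in place of 709 and 0 of the brush border, where the methods' unadjusted t-test called 1. With the replicate number as a block, 2621 probes were called in B6 minus NZW, and the brush border count of BALB/C minus 129/svj became 2. Most probes lie near the background, where the offset compresses differences, and the dim Lrp2, Cubn, and Dpp4 probes are limited by this.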
